A study of Mus musculus with 8 samples.

Results

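Type 2 cytokines, the epithelial alarmins and their receptors were followed in the lungs of 8 female BALB/c mice. The set held 10 genes, Il4, Il5, Il13, Il33, Tslp, Il25, Il1rl1, Il13ra2, Il4ra and Areg, chosen by name and found on the array by RefSeq accession. Together they had 15 of the 56605 probes, and 10 of the 45616 genes or unnamed accessions that the array covers. Each of 4 groups had 2 mice, 1 array per mouse. NT mice ate standard feed and were never exposed to the allergen. Ctrl-F, Cap-F and ODNcap-F mice were all sensitized to ovalbumin (OVA) by intraperitoneal injection of OVA on aluminum gel on Days 42, 49 and 56, and inhaled an aerosol of 2% OVA daily from Day 63 to Day 69. Ctrl-F mice were given standard feed throughout. Cap-F mice ate feed with carbonate apatite particles that carried no oligodeoxynucleotide, and ODNcap-F mice ate feed with the same particles loaded with a CpG-oligodeoxynucleotide, a synthetic DNA that activates Toll-like receptor 9. All mice had been bought at 4 weeks of age and housed for 2 weeks, were fed for 70 days, and no engineered allele is named for them. Lungs were collected on Day 70, which was 24 h past the final inhalation in the OVA-challenged groups.

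Type 2 immunity is driven by T helper 2 (Th2) cells and group 2 innate lymphoid cells (ILC2), which release the interleukins IL-13, IL-5 and IL-4. IL-4 drives Th2 differentiation and the class switch to IgE, IL-5 supports eosinophils, and IL-13 acts on airway epithelium and smooth muscle. IL-33, TSLP and IL-25 are alarmins, released by barrier cells on injury or allergen contact, and they activate Th2 cells and ILC2. IL-33 signals through ST2, the product of Il1rl1. IL-4 and IL-13 share the receptor chain encoded by Il4ra, whereas the product of Il13ra2 binds IL-13 with high affinity and is widely regarded as a decoy.

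Sequences upstream of the cytokine cluster genes and of both receptor genes that rose are given first, so that the values can be set beside them. Il4, Il13 and Il5 lie together on chromosome 11, with Rad50 between Il13 and Il5. Each sequence below holds the 250 bases before an annotated RefSeq start of build GRCm38.p6, read 5′ to 3′ on the strand of the gene. Capitals mark matches on either strand to TTCNNNNGAA, a spacing bound by STAT6 (the factor activated by IL-4 and IL-13). They also mark GATAA or its reverse complement TTATC, a form of the core of GATA factor sites. The form GATAG, with reverse complement CTATC, was not searched, so a sequence without a match may still hold it.
Il4, chr11:53618666-53618915, minus strand: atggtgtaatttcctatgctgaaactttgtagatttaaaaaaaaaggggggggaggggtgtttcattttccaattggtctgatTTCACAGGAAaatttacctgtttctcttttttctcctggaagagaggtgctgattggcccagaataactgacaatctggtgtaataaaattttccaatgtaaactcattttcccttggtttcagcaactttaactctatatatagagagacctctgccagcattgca
Il13, chr11:53634703-53634952, minus strand: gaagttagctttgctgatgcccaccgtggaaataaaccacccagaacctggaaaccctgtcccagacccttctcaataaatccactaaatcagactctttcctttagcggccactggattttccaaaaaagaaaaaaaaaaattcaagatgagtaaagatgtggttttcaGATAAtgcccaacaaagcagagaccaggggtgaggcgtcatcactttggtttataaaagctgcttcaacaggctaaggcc
Il5, chr11:53720544-53720793, plus strand: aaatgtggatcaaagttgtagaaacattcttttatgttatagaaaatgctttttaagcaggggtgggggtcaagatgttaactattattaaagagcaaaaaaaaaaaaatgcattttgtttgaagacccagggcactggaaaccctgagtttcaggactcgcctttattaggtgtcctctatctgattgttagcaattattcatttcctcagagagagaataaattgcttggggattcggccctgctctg
Il1rl1, farther upstream start, chr1:40429320-40429569, plus strand: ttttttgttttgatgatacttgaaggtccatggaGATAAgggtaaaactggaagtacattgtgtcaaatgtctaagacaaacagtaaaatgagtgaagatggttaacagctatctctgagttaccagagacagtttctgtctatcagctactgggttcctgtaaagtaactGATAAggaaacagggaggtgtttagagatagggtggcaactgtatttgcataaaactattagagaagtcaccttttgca
Il1rl1, nearer start, chr1:40439379-40439628, plus strand: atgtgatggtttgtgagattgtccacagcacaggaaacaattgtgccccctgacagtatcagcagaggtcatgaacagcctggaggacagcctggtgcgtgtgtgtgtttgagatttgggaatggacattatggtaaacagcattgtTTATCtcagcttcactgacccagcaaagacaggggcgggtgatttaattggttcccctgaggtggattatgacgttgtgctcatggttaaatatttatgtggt
Il13ra2, chrX:147429193-147429442, minus strand: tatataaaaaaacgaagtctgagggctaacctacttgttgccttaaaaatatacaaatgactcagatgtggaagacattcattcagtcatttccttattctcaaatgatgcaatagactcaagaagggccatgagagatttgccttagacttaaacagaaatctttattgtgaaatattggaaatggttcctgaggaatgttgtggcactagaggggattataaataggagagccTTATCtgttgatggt
The STAT6 spacing occurred once upstream of Il4, beginning 167 bases before the start, in a window length where 5.85% of 32851 promoters hold a match. GATAA or TTATC was found once upstream of Il13, once upstream of Il13ra2, 2 times at the farther and 1 time at the nearer start of Il1rl1, and in neither the Il4 nor the Il5 sequence, against 22.6% of all promoters with a match. TTTCC or GGAAA, the core bound by NFAT factors, which is not capitalized because 55.6% of promoters hold it, matched 5 times upstream of Il4, 4 times upstream of Il13 and 2 times upstream of Il5. It matched 2 times at Il13ra2 and 1 time at each start of Il1rl1. One of the 5 in Il4 overlapped the STAT6 spacing. The second annotated start of Il4 had no match to any of the 3 motifs as searched. The STAT6 spacing also matched at 1 of 2 starts of Il33, beginning 36 bases before it, with 1 GATA and 1 NFAT match there and none at the other start. Among all promoters, 0.390% held 5 or more NFAT matches and 1.59% held 4 or more. A match describes letters only. In all, upstream sequences of 8 of the 10 genes were used, without Tslp and Il25. Those of Il33, Il4ra, Areg and a second start of Il4 are not printed.

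Expression is given as log2 of the background-subtracted signal after quantile normalization over the 8 arrays, and levels of different probes are not comparable. A probe entered the tests if the scanner software marked it as well above background in both mice of at least 1 group. The faintest such log2 signal on an array was 3.61 to 4.18. Of the 10 genes, 9 passed with 13 of their 15 probes, and Il25 did not. For 6 of the 9 both NT mice were above background. Il5, Il13 and Il13ra2 passed solely through the OVA-challenged groups, so a difference from NT was built into their entry. A gene was called at a limma adjusted p under 0.05 and a change over 2-fold, on its brightest probe, with adjustment over all 37116 probes tested. Groups of 2 mice allow no exact permutation p under 0.333. Arrays of NT and Ctrl-F sat in row 1 of the slide and those of Cap-F and ODNcap-F in row 2. NT and Cap-F held columns 1 and 2, Ctrl-F and ODNcap-F columns 3 and 4. Slide position and group thus cannot be told apart in any comparison. Across all probes the median difference from NT was −0.10 in Ctrl-F, −0.10 for Cap-F and −0.11 for ODNcap-F on the log2 scale, and the changes given are to be read against it. The 3 comparisons share the NT mice. In whole-lung RNA, a change in the number of cells that express a gene and a change in RNA per cell cannot be told apart.

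Against NT, 7 of the 10 genes were called for Ctrl-F, 7 for Cap-F and 7 for ODNcap-F. The share called among all genes tested was 22.8% for Ctrl-F, 19.6% for Cap-F and 20.7% for ODNcap-F. The 7 include Il5, Il13 and Il13ra2, whose entry built in a difference. Of the 6 genes above background in both NT mice, 4 were called in each comparison (Il4, Il33, Il1rl1 and Tslp), where 20.9%, 17.6% and 18.8% of all genes with such NT signals were called. Il4, Il5, Il13, Il33, Il1rl1 and Il13ra2 were higher in each OVA-challenged group, where 10.5%, 9.74% and 9.86% of all genes were called higher in the same order. Tslp was lower, and 12.2%, 9.87% and 10.8% of all genes were called lower. Il4ra and Areg did not pass the test in any comparison. Lack of overlap with the NT mice was common across the array. Both mice of a group lay above both NT mice for 35.5%, 34.3% and 34.2% of all genes in the 3 comparisons in the order given, and below them for 48.5%, 47.8% and 48.1%.

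**Figure D1:**
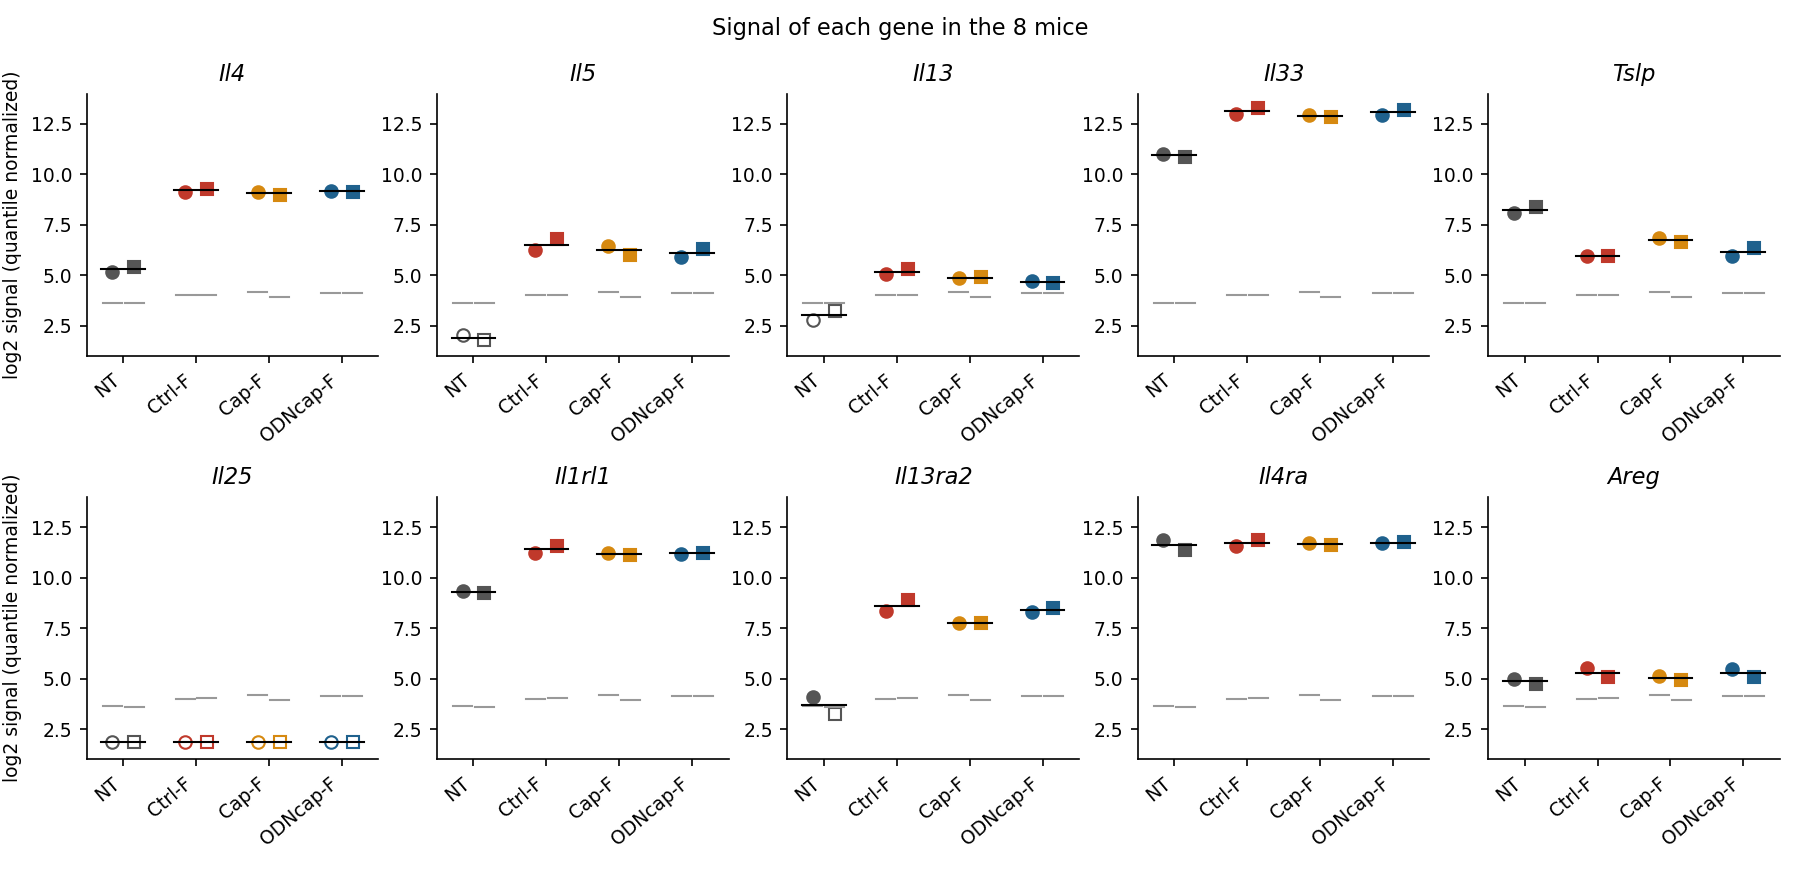
Log2 signal (vertical axes) of each of the 10 genes on its brightest probe in the 8 mice, by group (horizontal axes); circles are mouse 1, squares mouse 2, black bars group means, open symbols values not well above background and gray dashes the faintest signal well above background on that array. The 6 OVA-challenged mice lie above both NT mice for Il4, Il5, Il13, Il33, Il1rl1 and Il13ra2 and below them for Tslp, whereas Il25 stays at the background on all 8 arrays.

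Among the type 2 cytokines, Il4 (NM_021283) had log2 signals of 5.16 and 5.42 in the NT mice, 9.11 and 9.28 in Ctrl-F, 9.14 and 8.99 in Cap-F, and 9.16 and 9.14 in ODNcap-F. All 6 OVA-challenged mice were above both NT mice, and the groups did not overlap. Il4 was higher than in NT by 3.90 ± 0.12 (SE) on the log2 scale in Ctrl-F, which is 14.96-fold (limma adjusted p = 8.69e-06). The difference was 3.77 in Cap-F (limma adjusted p = 1.11e-05) and 3.86 in ODNcap-F (limma adjusted p = 9.52e-06), with the same error. Il4 was the only 1 of the 3 cytokines that was above background in NT lungs.

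Il5 (NM_010558) read 2.03 and 1.77 in NT, not well above background in either mouse, and 6.23 and 6.77 in Ctrl-F, 6.44 and 6.02 in Cap-F, and 5.90 and 6.30 in ODNcap-F. Set against the faintest detectable signal, Il5 was at least 7.35-fold higher in Ctrl-F, at least 6.08-fold for Cap-F and at least 5.57-fold for ODNcap-F, with limma adjusted p of 5.37e-05, 7.70e-05 and 8.24e-05. Here and below, each bound takes the mean of the bright group over the mean floor of the arrays of the dim group, here NT. That floor is the faintest flagged signal and no upper limit for signals without the flag. The words at least therefore hold on this signal scale only. The p-values belong to the fitted differences between measured signals, not to the bounds. Signals of Il13 (NM_008355) were 2.78 and 3.24 in NT, again not well above background, and 5.05 and 5.30 in Ctrl-F, 4.87 and 4.89 in Cap-F, and 4.73 and 4.63 in ODNcap-F. Every OVA-challenged mouse was above the NT mice, though not far above the faintest detectable signal of its array. Il13 was at least 2.93-fold higher in Ctrl-F, at least 2.39-fold for Cap-F and at least 2.08-fold for ODNcap-F (limma adjusted p = 0.000168, 0.000332 and 0.000458). With normexp background correction the Il13 differences were 0.37, 0.31 and 0.24 and those of Il5 1.18, 0.95 and 0.95 on the log2 scale. The 2-fold limit was then missed by Il13 in every group and by Il5 in Cap-F and ODNcap-F, with adjusted p still under the threshold.

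The rise was not shared by genes next to the cytokines on chromosome 11. Kif3a, Rad50 and Irf1, which flank or separate Il4, Il13 and Il5, differed from NT by −0.46, −0.43 and −0.48 in Ctrl-F on the log2 scale, and none was called. Kif3a encodes a kinesin subunit of cilia, Rad50 a DNA repair protein and Irf1 an interferon-responsive transcription factor. These neighbors were chosen by position.

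Markers of the cells that make these cytokines were read beside them. Counts here and in later lists are to be read against the shares called over all genes for Ctrl-F, Cap-F and ODNcap-F. These were 10.5%, 9.74% and 9.86% higher, and 12.2%, 9.87% and 10.8% lower. Of the 10 Th2 and ILC2 markers, 4 were called higher and 1 lower in Ctrl-F against NT, and the counts were equal for the other two feeds. Icos, a costimulatory receptor, was higher by 2.45 and Ccr8, a chemokine receptor of Th2 cells, by 2.09 on the log2 scale. Rora, a transcription factor of ILC2 that other lung cells also use, was lower by 1.43 (−1.43). Gata3, the defining factor of both cell types, differed by −0.19 and was well above background in all 8 mice. The summed linear signal of the 10 was 14499 to 15107 in the NT mice and 10797 to 12000 in the Ctrl-F mice, a difference carried by Rora, the brightest of them. Of the 10 general T cell markers, 1 was called higher in Ctrl-F, 4 for Cap-F and 1 for ODNcap-F. The counts for Ctrl-F and ODNcap-F were near the share over all genes. The sum of these markers ran from 10112 to 13385.5 in the NT mice and from 17513 to 19537 with OVA on standard feed. The part of these cells in the cytokine values was not tested.

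The alarmins differed in direction. Il33 (NM_001164724) had log2 signals of 11.004 and 10.86 in NT against 12.99 and 13.29 in Ctrl-F, 12.93 and 12.83 in Cap-F, and 12.95 and 13.18 in ODNcap-F. The NT mice lay below all others. Il33 was higher by 2.21 ± 0.14 in Ctrl-F, or 4.61-fold, by 1.95 in Cap-F and by 2.13 in ODNcap-F (limma adjusted p = 8.16e-05, 0.000143 and 0.000105). A second, fainter Il33 probe gave 2.17, 1.72 and 2.12. Alveolar type 2 cells are a main source of IL-33 in the mouse lung, and their 8 markers all passed the filter for detection. None of the 8 was called in any of the 3 comparisons, with a summed signal of 492945 to 502270 in NT and 477752 to 495505 in Ctrl-F. Sftpc, the brightest of them, read 17.60 in both NT mice and 17.64 in both Ctrl-F mice. Quantile normalization gives the brightest probes nearly the same values on every array. Sftpc, which weighs most in the sum, could thus hardly show a difference, and the sums are in part fixed. The median difference of the 8 from NT was −0.36, −0.40 and −0.40 in the order given. Over all genes tested it was −0.12, −0.11 and −0.12. The part of these cells in the Il33 values was not tested.

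Tslp (NM_021367) went the other way, with 8.07 and 8.37 in NT against 5.97 and 5.96 in Ctrl-F, 6.83 and 6.65 in Cap-F, and 5.93 and 6.36 in ODNcap-F. The 2 NT mice were the highest of the 8, and the Cap-F mice came next. Tslp fell by 2.25 ± 0.17 on the log2 scale in Ctrl-F, a 4.76-fold drop, by 1.48 in Cap-F and by 2.07 in ODNcap-F (limma adjusted p = 0.000165, 0.000858 and 0.000249). Some markers of structural cells of the lung were lower as well. In Ctrl-F, 4 of 7 fibroblast markers were called lower and 1 higher, 4 of 6 endothelial markers were lower, and 1 of 5 airway epithelial markers was lower, namely the secretory protein Scgb3a2 at −4.12. The share called lower among all genes in Ctrl-F was 12.2%. Fibroblast markers called lower numbered 3 in Cap-F and 2 in ODNcap-F, with 1 higher in each. The summed signal of the endothelial markers was 86548 to 88211 in NT and 41808 to 53841 in Ctrl-F, that of the fibroblast markers 47972 to 49609 and 44948 to 45366, and that of the airway epithelial markers 323914 to 351031 and 199988 to 211611. The airway epithelial difference was carried mostly by Scgb3a2. Scgb1a1, Foxj1, Epcam and Cdh1 differed by −0.08, −0.50, 0.09 and −0.19 in Ctrl-F, and none of them was called. Scgb1a1 is among the brightest probes, so quantile normalization holds its values as it does those of Sftpc. The part of these structural cells in the fall of Tslp was not tested.

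Il25 (NM_080729) was not well above background on any of the 8 arrays, with log2 signals between 1.86 and 1.89, so no difference could be read. Tuft cells are its best known source. Of their 9 markers, the defining Trpm5, Pou2f3 and Gnat3 were below background in every mouse. Of the 6 that could be tested, Dclk1, Gfi1b and Il17rb were called higher in Ctrl-F, at 2.44, 2.07 and 1.71, and other cells express these too. Il17rb encodes the receptor chain that binds IL-25.

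**Figure D2:**
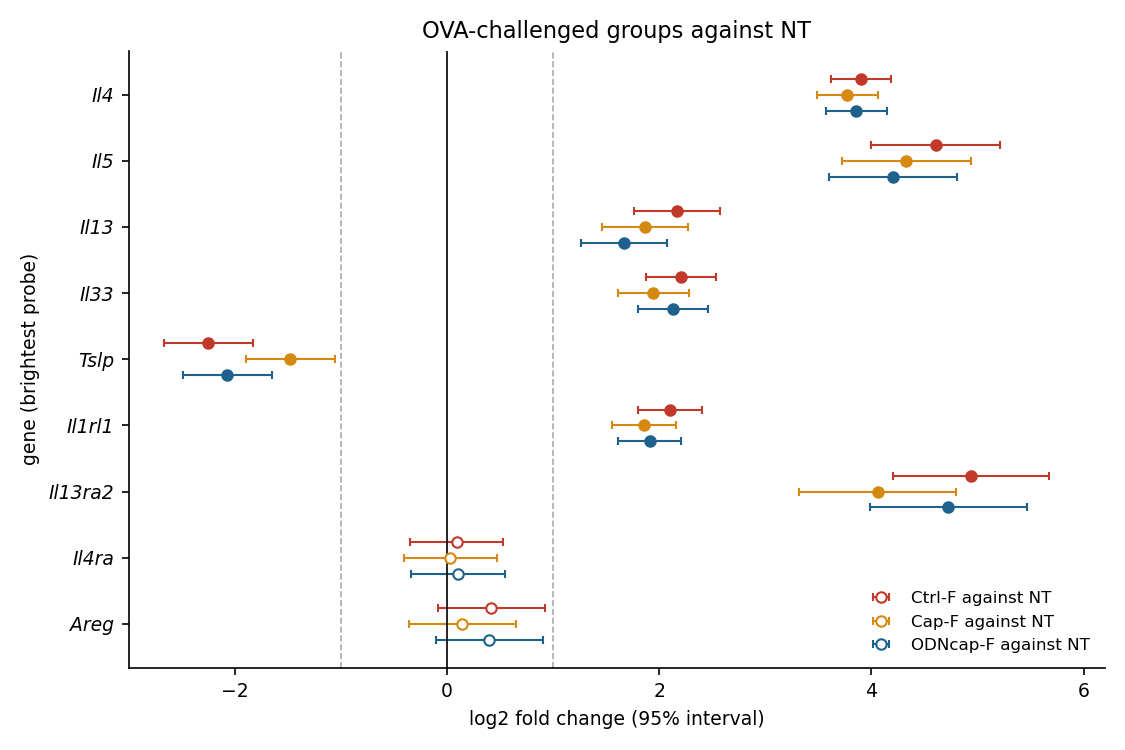
Difference from NT on the log2 scale (horizontal axis) for the 9 genes tested, with 95% intervals from limma; colors give the OVA-challenged group, filled points were called, and dashed lines mark a 2-fold change. Il4 lies near 4 and Il33 and Il1rl1 near 2; the points of Il5 and Il13 are set against NT signals not well above background in either mouse and that of Il13ra2 against 1 such mouse, so their place on the axis depends on the background, while Tslp lies between −2.25 and −1.48 and the intervals of Il4ra and Areg include 0.

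Among the receptors, Il1rl1 was measured by 3 probes. On the brightest (NM_001025602) the log2 signals were 9.35 and 9.26 in NT against 11.23 and 11.58 in Ctrl-F, 11.21 and 11.12 in Cap-F, and 11.18 and 11.25 in ODNcap-F, without overlap between NT and the rest. Il1rl1 was higher by 2.10 ± 0.12 in Ctrl-F, or 4.29-fold, by 1.86 in Cap-F and by 1.91 in ODNcap-F (limma adjusted p = 7.00e-05, 0.000121 and 0.000107). A probe listed under the other transcript, NM_010743, read 1.73 and 3.77 in NT, the first not well above background, and between 6.31 and 6.93 in the other 6 mice. Its fitted difference of 4.09 ± 0.60 in Ctrl-F thus depends on a signal at the background, and was 1.31 with normexp background correction, against 2.01 for the brightest probe. The third probe, again listed under NM_001025602, read 3.87 and 3.66 in NT, with 1 of the 2 mice well above background, and its difference in Ctrl-F was 2.51, or 0.85 with normexp. The gene encodes a membrane receptor and a soluble form that binds IL-33 without signaling, and which of them each probe reads was not determined because probe sequences were not used here.

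**Figure D3:**
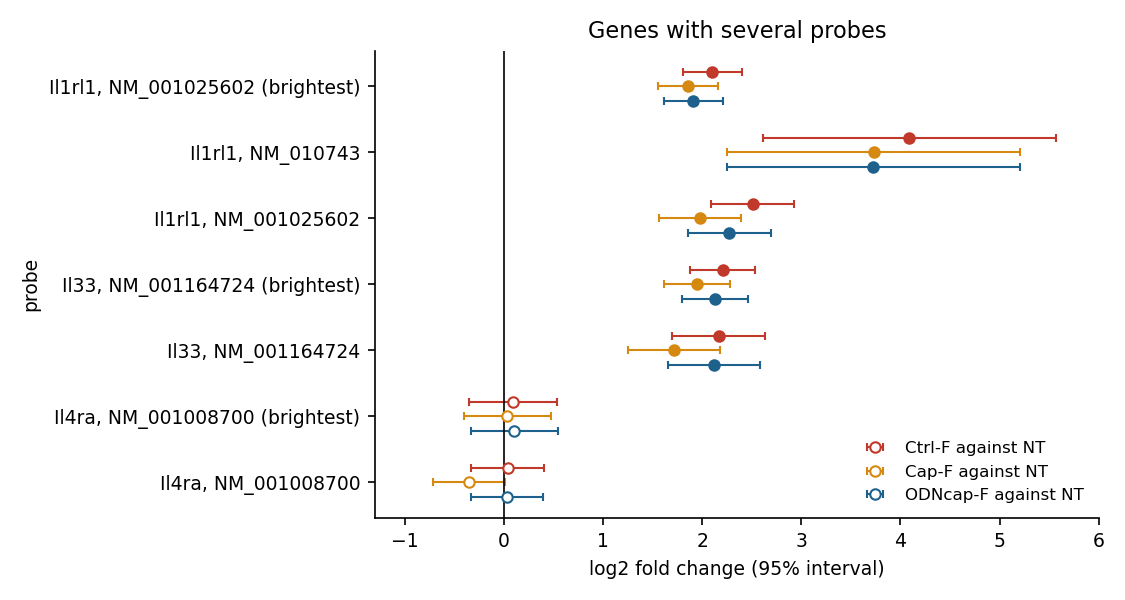
Difference from NT on the log2 scale (horizontal axis) with 95% intervals for each tested probe of Il1rl1, Il33 and Il4ra, labeled by accession; colors give the group and filled points were called. The 3 probes of Il1rl1 and both of Il33 were higher in all 3 groups, but the NM_010743 probe of Il1rl1, which has the widest interval, and the fainter NM_001025602 probe were each well above background in 1 of the 2 NT mice, so their sizes are not to be compared with that of the brightest.

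Il1rl1 has the related receptor genes Il1r2, Il1r1, Il1rl2, Il18r1 and Il18rap as neighbors on chromosome 1. Il1rl2, which lies right beside it, was not among the genes tested. The decoy receptor gene Il1r2 was called higher in Ctrl-F by 3.53 on the log2 scale. Il1r1 differed by 0.56, Il18r1 by −0.81 and Il18rap by −0.04, none of them called in Ctrl-F, although Il18r1 was called lower in Cap-F at −1.23. Mast cells and basophils carry ST2 as well. Of 10 tested markers of these cells, 3 were called higher (Cpa3 at 1.45, Fcer1a at 1.18 and Mcpt4 at 2.44) and Gata2 was lower at −1.31. The summed signal was 16008 to 16410.5 in NT and 15261 to 16367 in Ctrl-F. Bright Hdc, Kit and Gata2 carried nearly all of this sum. Hdc differed by 0.77 and Kit by −0.98, neither called, so the sum says little about the fainter markers. The part of these cells in the Il1rl1 values was not tested.

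Il13ra2 (NM_008356) had log2 signals of 4.10 and 3.26 in NT, with the second mouse not well above background, 8.35 and 8.90 in Ctrl-F, 7.74 and 7.74 in Cap-F, and 8.32 and 8.49 in ODNcap-F. The 3 OVA-challenged groups were far above NT, and Cap-F was the lowest of them. Since 1 of the 2 NT mice measured it, the fitted difference depends on a signal at the background, and no fold is given. It was 4.94 ± 0.30 on the log2 scale with standard feed (Ctrl-F), 4.06 for Cap-F and 4.73 for ODNcap-F (limma adjusted p = 8.00e-05, 0.000178 and 0.000106). With normexp background correction it was 2.48, 1.81 and 2.27. A second probe, listed under NM_001306059, was below background on all arrays.

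Il4ra (NM_001008700), the chain shared by the IL-4 and IL-13 receptors, was bright in every lung, at 11.89 and 11.39 in NT against 11.59 and 11.86 in Ctrl-F, 11.73 and 11.60 in Cap-F, and 11.73 and 11.75 in ODNcap-F. The values of all groups lay within the range of the 2 NT mice. The difference from NT was 0.09 in Ctrl-F (95% interval −0.35 to 0.53), 0.03 in Cap-F (−0.41 to 0.47) and 0.10 in ODNcap-F (−0.34 to 0.54). A change of 2-fold in either direction thus lay outside these intervals. A fainter Il4ra probe gave 0.04, −0.35 and 0.03.

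Areg (NM_009704) encodes amphiregulin, an EGF receptor ligand made by ILC2 and epithelium in tissue repair. It was faint, at 5.0 and 4.75 in NT against 5.52 and 5.06 in Ctrl-F, 5.12 and 4.92 in Cap-F, and 5.47 and 5.08 in ODNcap-F. The Ctrl-F and ODNcap-F mice were all above the NT mice by a small margin, and the Cap-F mice overlapped NT. The difference was 0.42 ± 0.21 in Ctrl-F (limma adjusted p = 0.125), 0.14 in Cap-F (limma adjusted p = 0.579) and 0.40 in ODNcap-F (limma adjusted p = 0.142), none past the threshold.

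Other genes of the same pathways were read from 6 lists, which were chosen with earlier results of these data known. Their counts describe the lists and are no independent support. Of 22 genes known to be induced by IL-4 and IL-13, 21 were called higher in Ctrl-F, 21 for Cap-F and 21 for ODNcap-F, and none lower. Over all genes tested, 10.5%, 9.74% and 9.86% were called higher in the same order. Their median difference in Ctrl-F was 4.91 on the log2 scale, against −0.12 over all genes tested. Clca1, Arg1 and Retnlb are among genes of the list that entered solely through the OVA-challenged groups. A difference from NT was built into that part of the count and median. Clca1, a secreted product of mucous cells, read 2.65 and 5.38 in NT, the first not well above background, and 16.91 and 16.68 in Ctrl-F. Slc26a4, the anion exchanger pendrin, went from 6.66 and 6.54 to 15.18 and 15.29, a difference of 8.64. Arg1, the arginase of alternatively activated macrophages, read 4.90 and 3.71 in NT, with 1 of the 2 mice well above background, and 12.84 and 13.18 in Ctrl-F. Retnlb, a goblet cell product at background in NT, was at least 161-fold higher. The exception was Vcam1, an endothelial adhesion molecule for eosinophils, at 0.58.

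Of the 13 genes of IL-4 and IL-13 receptor signaling, 5 were called higher and 1 lower in Ctrl-F, 6 and 1 in Cap-F, and 3 and 1 in ODNcap-F. The feedback inhibitors Socs1 and Cish were higher in Ctrl-F by 2.56 and 1.59 and the phosphatase gene Ptpn6 by 1.33, while the adaptor gene Irs1 was lower at −1.24. Stat6 itself differed by −0.39 and the second IL-13 receptor chain Il13ra1 by −0.15, neither called. Jak2 and Jak3, kinases of these receptors, stood at 1.05 and 1.08 in Ctrl-F and at 0.94 and 0.96 in ODNcap-F, on either side of the 2-fold limit. The median of the list in Ctrl-F was 0.87. Stat6, Il13ra1, Jak2 and Jak3, like Crlf2, Il1rap and Egfr below, were picked for their role after the values had been seen.

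Of 9 tested genes among other type 2 cytokines and the receptors of the IL-5 family, 6 were called higher in each OVA-challenged group and none lower, with a median of 1.96 in Ctrl-F. Il5ra, the IL-5 receptor of eosinophils and some B cells, was higher by 3.16 in Ctrl-F, and Il9r, the IL-9 receptor, by 2.86. Il24, a cytokine of the IL-10 family, entered solely through the OVA-challenged groups and was at least 2.92-fold higher. Csf2rb2 was higher by 1.97. It is a near copy of Csf2rb, the common receptor chain, and probes may read both. Il31 was below background on all arrays, and Il9 did not pass the filter. Of 7 eosinophil markers, 6 were called higher in Ctrl-F, 5 for Cap-F and 5 for ODNcap-F, with a summed signal of 26154 to 27342 in NT and 54627 to 63318.5 in Ctrl-F. Among these markers Epx entered solely through the OVA-challenged groups. The part of eosinophils in Il5ra was not tested.

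Most genes of alarmin receptors and their adaptors were not called. Of 18, 2 were higher and 1 lower in Ctrl-F, 2 and 2 in Cap-F, and 2 and 1 in ODNcap-F. Over all genes, 22.8%, 19.6% and 20.7% were called in either direction, so the list did not stand out by count. Il17rb was higher by 1.71 and Il7r, a chain of both the IL-7 and the TSLP receptor, by 1.45. Crlf2, the chain specific to TSLP, differed by 0.72 and Il1rap, the partner chain of ST2, by −0.35. The cytokine gene Il18, of the IL-1 family like Il33, fell by 2.24 on the log2 scale. In the EGF family, 2 of 7 tested genes were lower in each group and none higher. The shares called lower over all genes were 12.2%, 9.87% and 10.8%. Btc, betacellulin, entered solely through the NT mice and was at least 3.51-fold lower in Ctrl-F. Tgfa was lower at −1.19, while Egfr differed by −0.96 without a call. Ereg, Epgn and Erbb4 were below background in all mice.

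Some cytokines of other T helper programs were higher too. Of 8 tested, 5 were called higher in Ctrl-F, 6 for Cap-F and 5 for ODNcap-F. Il21, a product of follicular helper T cells, was below background in NT and at least 13.6-fold higher in Ctrl-F. Il10, a regulatory cytokine, was at least 5.78-fold higher. Il6, an acute phase cytokine, read 3.26 and 3.90 in NT, with 1 of the 2 mice well above background, and 7.39 and 7.61 in Ctrl-F. Il21, Il10 and Il6 entered solely through the OVA-challenged groups, so a difference from NT was built into that part of the count. Tnf was higher by 1.31. Il17f was below background on all arrays.

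**Figure D4:**
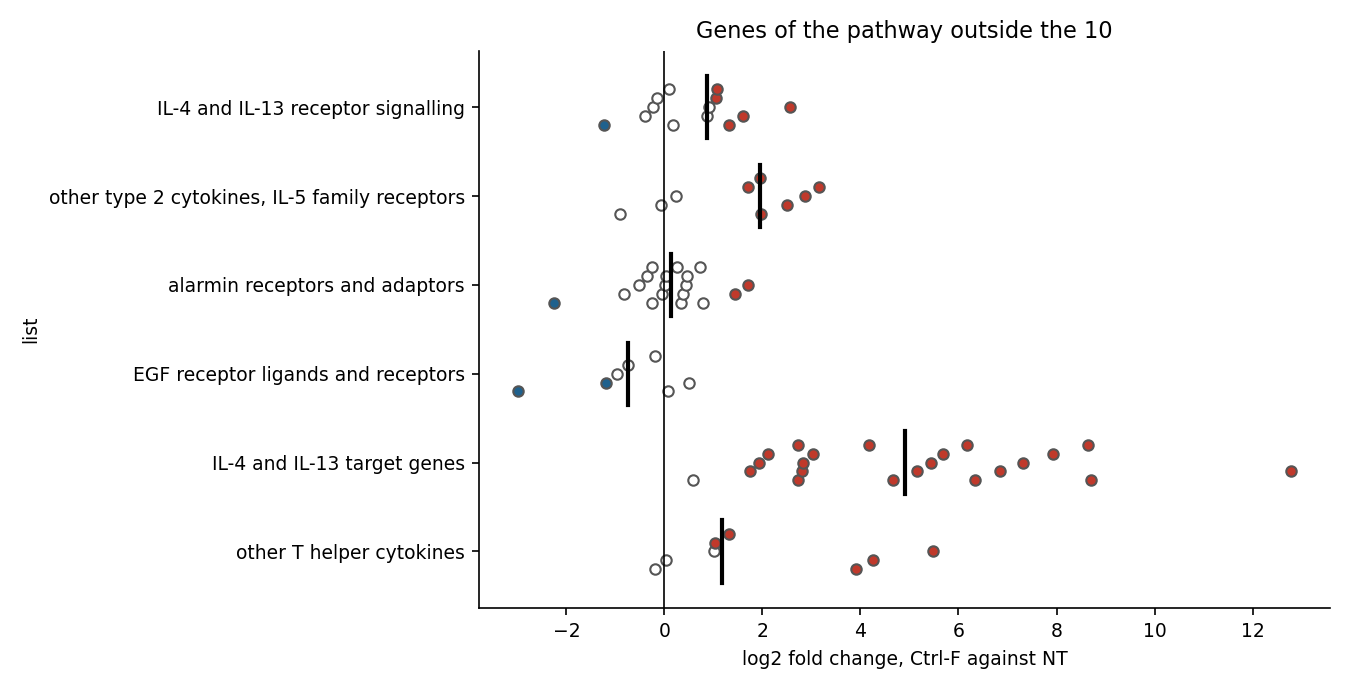
Difference between Ctrl-F and NT on the log2 scale (horizontal axis) for each tested gene of the 6 lists (vertical axis, points spread only to be visible); red points were called higher, blue points lower, open points not called, and black bars are list medians. Of the 22 target genes of IL-4 and IL-13, 21 are red with a median of 4.91, whereas most points of the alarmin receptor list are open and lie around 0. Some of the 21 were well above background in at most 1 of the 2 NT mice. The lists were chosen with earlier results of these data known.

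Whether the feed altered these genes was asked within the OVA-challenged mice. None of the 10 was called in ODNcap-F against Ctrl-F, in ODNcap-F against Cap-F or in Cap-F against Ctrl-F, by limma or by the local-pooled-error test. Over all genes tested, limma called 0%, 0.00345% and 0.00345%, and the local-pooled-error test, which called more, 0.442%, 0.362% and 0.483%. Without adjustment and with the 2-fold limit the count was 0 of 10 in each comparison, where 0.655%, 0.642% and 0.980% of all genes passed. The comparisons share groups, so their values are not independent of each other. limma called none of the genes of the 6 pathway lists and 9 marker lists in these comparisons either. The local-pooled-error test called 6 differences among them. In ODNcap-F against Ctrl-F these were the mucus genes Muc5ac (1.06), Muc5b (1.09) and Agr2 (1.40) and the fibroblast marker Lum (1.52), with limma adjusted p of 0.779, 0.760, 0.740 and 0.740. In Cap-F against Ctrl-F they were Arg1 (−1.01, limma adjusted p = 0.280) and Il17a, which was well above background in 3 of the 8 mice.

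For Il4 the intervals were the narrowest. ODNcap-F differed from Ctrl-F by −0.04 (95% interval −0.33 to 0.24) and from Cap-F by 0.08 (−0.20 to 0.37), which leaves out a 2-fold difference either way. Il5 in ODNcap-F differed from Ctrl-F by −0.40 (−1.01 to 0.20). Il13 differed by −0.50 between ODNcap-F and Ctrl-F (−0.90 to −0.09). Both ODNcap-F mice, at 4.73 and 4.63, read below both Ctrl-F mice, at 5.05 and 5.30. Its unadjusted p was 0.0246 and the limma adjusted p 0.740. Il13 was the only 1 of the 9 tested genes whose ODNcap-F mice were both below the Ctrl-F mice, an order that 18.6% of all genes showed, and none of the 9 showed the opposite order, against 17.0%. In ODNcap-F against Ctrl-F, Il33 differed by −0.08 (−0.41 to 0.25), Il1rl1 by −0.19 (−0.49 to 0.11) and Il13ra2 by −0.22 (−0.95 to 0.52).

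The largest differences between feeds were those of Cap-F, in Tslp and Il13ra2. Tslp in Cap-F exceeded Ctrl-F by 0.77 (0.35 to 1.20; unadjusted p = 0.00412, limma adjusted p = 0.169), with both Cap-F mice, at 6.83 and 6.65, above both Ctrl-F mice, at 5.97 and 5.96. ODNcap-F was lower than Cap-F by 0.60 (−0.60, −1.02 to −0.17; unadjusted p = 0.0135, limma adjusted p = 0.289). Il13ra2 in Cap-F stood below Ctrl-F at −0.88 (−1.62 to −0.15; unadjusted p = 0.0263, limma adjusted p = 0.251), and the local-pooled-error test gave an adjusted p of 0.00168 for it, under the 2-fold limit. ODNcap-F differed from Cap-F in Il13ra2 by 0.67 (−0.07 to 1.40). None of these passed limma after adjustment. ODNcap-F lay wholly above Cap-F for 2 of the 9 genes and wholly below it for 2, against 21.0% and 24.7% of all genes, and Cap-F lay above Ctrl-F for 1 and below it for 4, against 25.9% and 25.8%. The summed signal of the fibroblast markers was 44948 to 45366 in Ctrl-F, 52054 to 61321 in Cap-F and 49137 to 52636 in ODNcap-F, against 47972 to 49609 in NT. Among the OVA-challenged groups this sum was highest in Cap-F, and it was below NT only in Ctrl-F. Bright genes weigh most in it, and Col1a2 was the brightest on every array. Single markers differed in direction from NT, given with Ctrl-F first and ODNcap-F last. Pdgfra (−1.61, −1.56, −1.52) and Tcf21 (−1.95, −2.01, −1.91) were called lower each time, and Col3a1 (1.28, 1.49, 1.47) higher. Lum was called lower in Ctrl-F and Cap-F, and Dcn in Ctrl-F alone. Col1a1 and Col1a2 were never called. The part of fibroblasts in the Tslp values was not tested.

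**Figure D5:**
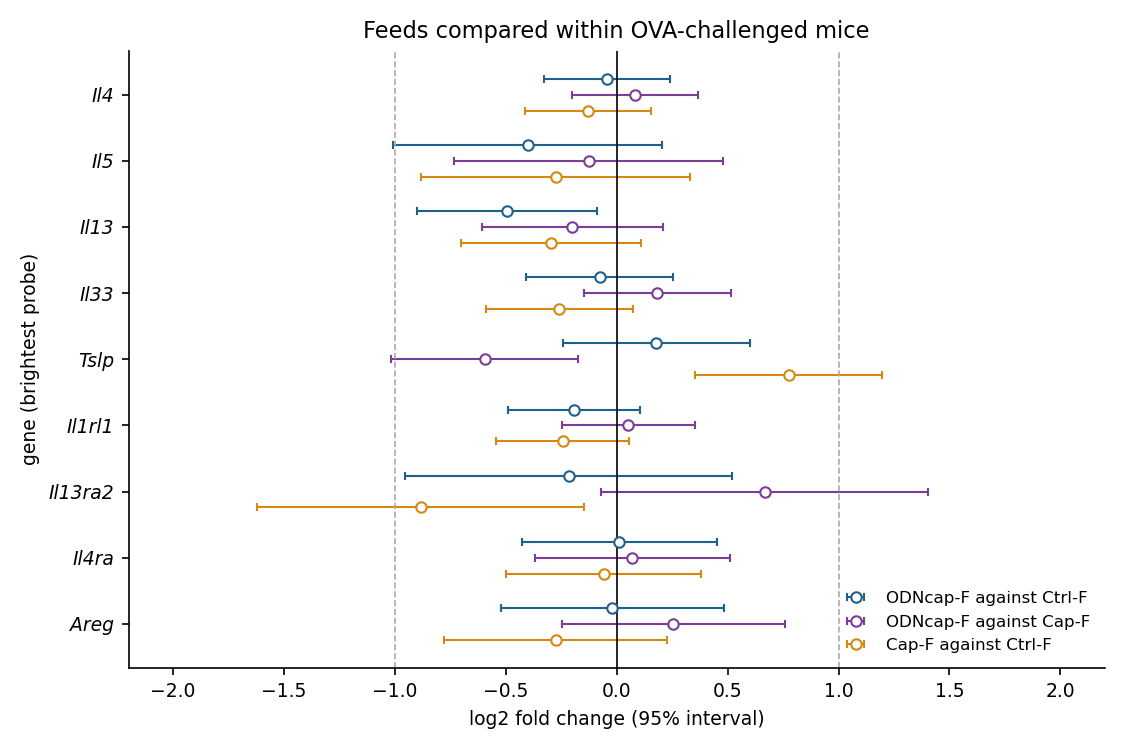
Differences between feeds within OVA-challenged mice on the log2 scale (horizontal axis) for the 9 genes tested, with 95% intervals from limma; colors give the comparison, dashed lines mark a 2-fold change, and all points are open because none was called. Intervals that leave out 0 are those of Il13 in ODNcap-F against Ctrl-F, of Tslp in both comparisons with Cap-F, and of Il13ra2 in Cap-F against Ctrl-F.

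The spread between the 2 mice of a group was often as wide as the difference between feeds. Among the 6 OVA-challenged mice, the highest value belonged to Ctrl-F mouse 2 for 7 of the 9 genes, and the lowest to Cap-F mouse 2 for 4. Without Ctrl-F mouse 2, the difference between ODNcap-F and Ctrl-F was 0.04 for Il4, 0.08 for Il33 and 0.06 for Il13ra2, where the sign had been negative with both mice. For Il13 it was −0.37 without that mouse. By group mean, the order was Ctrl-F, Cap-F, ODNcap-F, NT from high to low for Il5 and Il13, and Ctrl-F, ODNcap-F, Cap-F, NT for Il4, Il33, Il1rl1 and Il13ra2. For Tslp it was NT, Cap-F, ODNcap-F, Ctrl-F. In these orders NT differed from the group next to it and no OVA-challenged group differed from its neighbor beyond the test. For Areg (Ctrl-F, ODNcap-F, Cap-F, NT) and Il4ra (ODNcap-F, Ctrl-F, Cap-F, NT) no neighbors in the order were told apart by the test.

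Genes whose pattern over the 8 arrays was most like that of 3 members were looked up among 15175 named genes above background on every array. For Il33 they were Mrpl40 (Pearson r = 0.999), Polr1d (0.999) and Lrr1 (0.998), for Il1rl1 Ccdc93 (0.998), Glrx3 (0.998) and Ap3s1 (0.997), and for Il13 Wdr3 (0.998), Zc3h12a (0.996) and Mmp14 (0.994). Such values were common. With Il33, 2003 genes had r over 0.95, with Il1rl1 2067 and with Il13 1432. The 8 points of each correlation share 1 slide and fall into 2 NT and 6 OVA-challenged mice, so the step between these 2 sets enters every r.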

How the data were processed

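Lung RNA from 8 mice was labeled with Cy3 and hybridized to 1-color Agilent arrays on 1 slide. The authors deposited, per array, the scanner output with background-subtracted intensity and flags (Agilent Feature Extraction 11.0, per the submitters' processing notes), and 1 table of log2 values, quantile normalized, for 32312 probes. Here control and outlier spots were left out, intensities were turned to log2, averaged per probe and quantile normalized (limma 3.58.1, R 4.3.3). limma was fitted to all 4 groups without covariates, with 4 residual degrees of freedom, and adjusted by Benjamini-Hochberg over 37116 probes. On single arrays 61.3% to 65.0% of probes passed the background flag and none was saturated. Precision is limited by the number of arrays. Nothing states that mice of a group came from separate cages or experiments, so p-values measure the spread between these mice.

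Names came from a RefSeq table of GRCm38.p6, which matched 58.3% of probes by accession, and promoters from the same release. Coordinates of probes are not given, since the array header names another build. The brightest tested probe stands for a gene. The genes named are the 10 members, up to 4 called genes per pathway list with the largest difference between Ctrl-F and NT, genes of the marker lists, and the 3 genes most correlated with Il13, Il33 and Il1rl1. Members and lists were chosen with earlier results of these data known. Both limma and the local-pooled-error test of the study's methods, rebuilt here, were tested on simulated data. Alternatives were other scalings, normexp with an offset of 50, the deposited table, other filters, a replicate block, an intensity trend, fits of 2 groups, each mouse left out, and the mean of a gene's probes.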

Additional observations from a re-analysis of the deposited data

How the results depend on the processing

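Counts of called genes stood at 7 against NT and 0 between feeds under most settings, including each mouse left out. Against NT the count was 4 for Ctrl-F, 4 for Cap-F and 4 for ODNcap-F with the deposited table, with the local-pooled-error test on that table, and with probes above background on all arrays, because Il5, Il13 and Il13ra2 are then not tested. Normexp gave 6, 5 and 5. Between feeds, over all 37116 probes, limma called 0, 1 and 1 (ODNcap-F against Ctrl-F, ODNcap-F against Cap-F, Cap-F against Ctrl-F) and the local-pooled-error test 143, 116 and 155. The replicate number as a block left 7, 7, 7, 0, 0 and 0. Deviations of same-numbered mice correlated between −0.01 and 0.16 in the 6 pairs of groups, the highest being that of Cap-F and ODNcap-F. Such values cannot show whether same-numbered mice shared a cage or an experiment.

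Signs changed only for differences that were not called. Il4ra in ODNcap-F against Ctrl-F was −0.012 with scaling to the 75th percentile, Il4ra in Cap-F against NT −0.16 with the mean of its probes, Areg in Cap-F against NT −0.018 and Il5 in ODNcap-F against Cap-F 0.0037 with normexp. With each mouse left out, Il4ra ranged from −0.16 to 0.34 in Ctrl-F against NT, −0.22 to 0.28 in Cap-F against NT, −0.15 to 0.35 in ODNcap-F against NT, −0.12 to 0.15 in ODNcap-F against Ctrl-F and −0.19 to 0.077 in Cap-F against Ctrl-F. In ODNcap-F against Ctrl-F the ranges were −0.25 to 0.21 for Areg, −0.13 to 0.040 for Il4, −0.23 to 0.077 for Il33, −0.49 to 0.059 for Il13ra2 and −0.039 to 0.40 for Tslp. Il5 in ODNcap-F against Cap-F ranged from −0.33 to 0.082. The cause of these changes was not tested. The single mouse left in a group was assumed to vary like the others.

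Signals of Il5 and Il13 near background, and 2 mice per group, limit these results.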
